A study of Homo sapiens with 6 samples.

Results

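The RAB GTPases are small switch proteins that mark the membranes of the cell. RAB genes were taken here as the protein-coding genes whose symbol is RAB, a number and at most 2 further characters, without the RAB-interacting proteins RAB3IP and RAB5IF. This gave 64 of the 58440 genes in the count table. RNA was measured in 3 libraries of K562 cells over-expressing IRAIN, and in 3 control libraries. K562 is an established cell line grown from a patient with chronic myeloid leukaemia, and IRAIN is a long noncoding RNA read antisense to the start of IGF1R, the gene of an insulin-like growth factor receptor. The controls are wild type by their labels and vector by the table's column names, so untreated cells and cells with an empty vector cannot be told apart. The labels name neither the construct nor whether the over-expressing cells were 1 clone, and nothing says that each library had a culture of its own. The p-values therefore measure the spread between these libraries, which may be technical.

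A RAB protein bound to GTP recruits effectors such as motors, tethers and lipid kinases, and exchange factors (GEFs) and GTPase-activating proteins (GAPs) turn it on and off. Lipid groups added to its tail hold it in the membrane. Different members work at the endoplasmic reticulum and Golgi, at early, recycling and late endosomes, and at secretory granules. In the megakaryocyte and platelet lineage, to which K562 is related, RAB27A and RAB27B are known for the transport and release of granules.

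IRAIN itself had 97, 94 and 106 counts in the over-expression libraries, against 0, 0 and 1 in the controls. Library totals ran from 11558983 to 13303139 counts in the over-expression libraries and from 11893872 to 12237415 in the controls. Levels below are CPM, the counts of a gene per 1000000 counts of a library whose size was scaled with TMM factors. The erythroid genes that mark K562 were present in all libraries, with GATA1 at a mean of 194 CPM in over-expression libraries and 204 CPM in controls, and the B cell marker MS4A1 had no reads. Of the 4 megakaryocyte markers checked, GP9, PF4 and PPBP had no reads in any library. The summed level of that list, which is ITGA2B alone, ran from 11.9 to 13.1 CPM in over-expression libraries and from 16.6 to 21.9 CPM in controls. Markers of other blood cells summed to between 138 and 150 CPM in over-expression libraries and between 81.5 and 86.1 CPM in controls. Within that list PTPRC (CD45) was higher, at a mean of 122 CPM in over-expression libraries and 54.0 CPM in controls, while LYZ, at 13.6 CPM in over-expression libraries and 21.5 CPM in controls, and CD3D were called lower. A list meant for cells outside the blood summed to 47.5 to 54.9 CPM in over-expression libraries and 56.8 to 63.4 CPM in controls. PECAM1 in this list is not limited to such cells. PECAM1 was called lower, at a mean of 10.29 CPM in over-expression libraries and 19.98 CPM in controls. EPCAM, at 37.4 CPM in over-expression libraries and 37.8 CPM in controls, was not called, and COL1A1 was called higher.

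RAB27B, a GTPase of secretory and platelet granules, showed the widest difference of the family. The sequences around its start sites are given for that reason. RefSeq (GRCh38.p14) gives 2 start sites for it, far apart, and the gene counts do not separate transcripts from the first and the second. The windows of RAB3B and RAB3D, related genes of regulated secretion that were higher, are shown for comparison. Each window runs from 250 bases before to 50 bases after a start, 5′ to 3′ on the gene's strand. Capitals mark matches, on either strand, to 6 motifs. The GATA motif was read as AGATAA, the motif of CREB proteins as TGACGTCA and the E-box as CACGTG. The motif of ETS factors was read as CCGGAAGT, the GC box as GGGCGG and the AP-1 motif as TGACTCA.
RAB27B first start, chr18:54717607-54717906, plus strand: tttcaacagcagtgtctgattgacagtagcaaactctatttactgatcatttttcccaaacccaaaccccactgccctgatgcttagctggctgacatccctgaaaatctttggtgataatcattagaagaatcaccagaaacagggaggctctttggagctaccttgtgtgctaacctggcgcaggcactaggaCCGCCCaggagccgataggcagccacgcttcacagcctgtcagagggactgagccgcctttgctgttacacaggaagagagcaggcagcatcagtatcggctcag
RAB27B second start, chr18:54828227-54828526, plus strand: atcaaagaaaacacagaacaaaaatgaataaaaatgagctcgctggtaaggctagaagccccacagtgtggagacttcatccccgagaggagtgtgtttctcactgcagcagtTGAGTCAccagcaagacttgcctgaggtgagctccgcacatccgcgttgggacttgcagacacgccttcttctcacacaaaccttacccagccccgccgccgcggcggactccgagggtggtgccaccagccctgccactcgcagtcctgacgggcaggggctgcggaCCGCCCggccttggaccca
RAB3B, chr1:51990651-51990950, minus strand: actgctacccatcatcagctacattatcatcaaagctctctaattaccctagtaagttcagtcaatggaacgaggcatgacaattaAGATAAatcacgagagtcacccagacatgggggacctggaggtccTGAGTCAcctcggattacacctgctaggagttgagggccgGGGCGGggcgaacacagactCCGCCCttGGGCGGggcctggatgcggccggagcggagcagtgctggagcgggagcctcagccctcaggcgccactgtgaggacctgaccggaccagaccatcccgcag
RAB3D, chr19:11339608-11339907, minus strand: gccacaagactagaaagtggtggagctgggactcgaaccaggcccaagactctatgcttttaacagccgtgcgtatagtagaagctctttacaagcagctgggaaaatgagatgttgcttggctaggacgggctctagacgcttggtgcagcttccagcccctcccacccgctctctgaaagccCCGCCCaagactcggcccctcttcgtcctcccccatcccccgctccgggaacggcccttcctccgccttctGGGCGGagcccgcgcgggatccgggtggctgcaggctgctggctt
The first RAB27B window held 51% G and C with 6 CG pairs, and the second held 59% with 17. The RAB3B window held 58.7% with 15 CG pairs, and the RAB3D window 62% with 18. The median over the 72 windows of the 51 RAB genes in the table was 63.7% with 23 CG pairs, against 58.7% with 14 over all 35116 windows. The first RAB27B window held a GC box and none of the other motifs. The second held a GC box and an AP-1 match, and the RAB3B window held 3 GC boxes, an AP-1 match and a GATA match. GC boxes stood in 73.6% of RAB windows, against 45% of all windows. GATA matches stood in 6.94% of RAB windows, against 10.3% of all, and AP-1 matches in 8.33%, against 4.95% of all. These matches describe letters only.

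Of the 64 RAB genes, 46 had enough reads to be tested, and the tests below rest on those. The other 18 did not pass the low-count filter: none averaged above 0.657 CPM in over-expression libraries or 0.883 CPM in controls. RAB9B, RAB17 and RAB44 had 0 counts in every library, which allows up to 0.228 to 0.264 CPM per library for counting error only. The epithelial RAB25 and the neuronal RAB39B were also close to 0. RAB38, a GTPase of lysosome-related organelles that is close to RAB32, had 3, 5 and 4 counts in over-expression libraries, against 16, 7 and 9 in controls, too few to test.

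Per kilobase of exon not shared with another gene, RAB10 had the highest level in both groups, at 68 ± 1.87 CPM per kilobase in over-expression libraries and 71.3 ± 1.85 in controls (SD, n = 3 each). RAB10 carries vesicles from the Golgi and recycling endosomes to the cell surface. In over-expression libraries RAB27A came next at 44.5 ± 1.32, then RAB1A, of transport between endoplasmic reticulum and Golgi, at 42.8 ± 2.04, and RAB7A, of late endosomes, at 42.5 ± 0.993. RAB27A lay above RAB1A and RAB7A within every over-expression library, while RAB1A and RAB7A overlapped there. The gap was small in over-expression replicate 3, at 44.6 for RAB27A and 44.57 for RAB1A. In controls the order was RAB1A at 43.8 ± 1.55, RAB1B at 41.4 ± 2.14, RAB7A at 41.2 ± 0.537 and RAB27A at 37.5 ± 1.25 CPM per kilobase, and RAB1B overlapped both RAB1A and RAB7A, while RAB1A lay above RAB7A in every control library. RAB27B moved most in this order, at place 36 in over-expression libraries and place 12 in controls. Exon length merges all annotated transcripts, so genes with long, rarely used exons are placed too low.

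**Figure D1:**
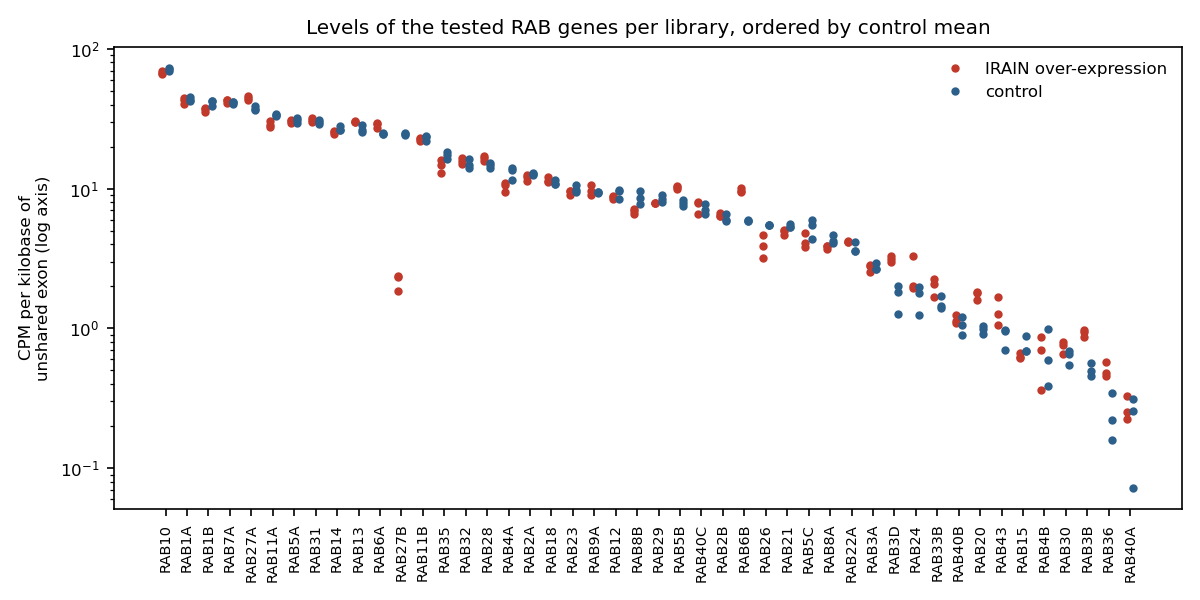
Levels of the 46 tested RAB genes in CPM per kilobase of unshared exon on a log axis, 1 point per library, with over-expression libraries left (red) and controls right (blue) of each gene's mark, ordered by the control mean. The points of the 2 groups lie close together for most genes, and RAB27B stands apart at 2.18 ± 0.293 in over-expression libraries and 24.7 ± 0.311 in controls (SD, n = 3 each).

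By edgeR's quasi-likelihood test with Benjamini-Hochberg adjustment at 0.05 over all 18380 genes tested, 20 of the 46 RAB genes (43.5%) differed, against 39.3% of all tested genes and 48.1% of tested protein-coding genes. Of these, 11 rose and 9 fell, where 20.3% of all tested genes rose and 18.9% fell. Of tested protein-coding genes, as all RAB genes here are, 24.8% rose and 23.4% fell. The share of RAB genes called is thus near the background. Their median log2 fold change was 0.04, against -0.00 over all tested genes. Differences of at least 1.5-fold were called for 6 RAB genes (13%), against 10.3% of all tested genes, and of at least 2-fold for 2 (4.35%), against 4.77%. For 24 of the 46 (52.2%) the libraries of both groups were fully separate in CPM, against 47.5% of all. DESeq2 called 8 RAB genes higher and 6 lower, where it called 28.6% of all tested genes. In edgeR's test against a 1.5-fold change, RAB27B alone was called among RAB genes, against 3.75% of all tested genes. In these bulk samples, fewer cells of a kind and less RNA per cell cannot be told apart.

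**Figure D2:**
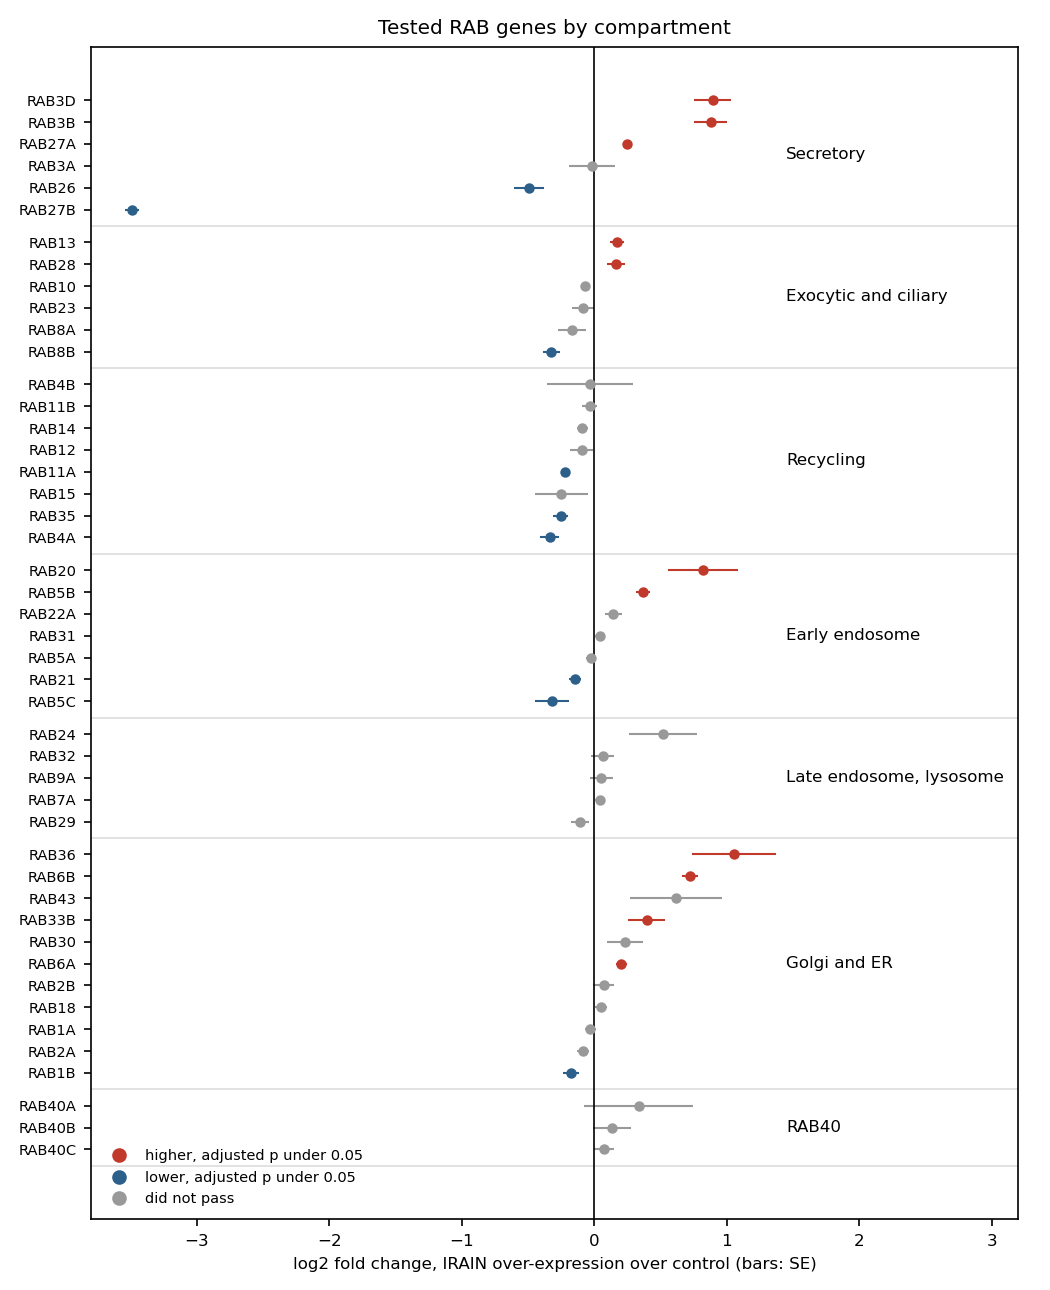
Log2 fold changes, over-expression over control, of the 46 tested RAB genes by compartment, with SE bars, red for higher, blue for lower and grey for genes that did not pass an adjusted p of 0.05. RAB27B lies at -3.49, far to the left of the others, which lie between -0.49 and 1.06. The 8 recycling genes all lie left of 0, where 9221 of all 18380 tested genes lie.

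Among the secretory RAB genes, which drive the docking and release of granules and vesicles, 3 of 6 tested rose and 2 fell. That is 50% and 33.3%, against 20.3% and 18.9% of all tested genes. RAB27B (ENSG00000041353.9, GRCh38 chromosome 18, 54717860 to 54895516, plus strand) stood at 13.1, 16.7 and 16.6 CPM in over-expression libraries, against 175, 177 and 173 CPM in controls. All 3 over-expression libraries were far below all 3 controls. On the log2 scale it differed by -3.49 ± 0.056 (SE, as after every log2 fold change below; edgeR adjusted p = 5.9e-52), and controls held 11.2-fold more. Among all 18380 tested genes ordered by log2 fold change, it stood at place 24 from the lowest. In a second deposited table with strand-specific counts of 1 library, 4.51% of the RAB27B reads lay on the opposite strand. The summed megakaryocyte markers given above were also lower in over-expression libraries, as were LYZ, CD3D and PECAM1, while PTPRC and COL1A1 were higher, and their part in this result was not tested.

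RAB27A (ENSG00000069974.15, chromosome 15, 55202966 to 55319113, minus strand), the close relative of RAB27B that also docks granules, was higher by a little. It stood at 234, 248 and 242 CPM in over-expression libraries, against 210, 197 and 202 CPM in controls, and the groups did not overlap (log2 fold change 0.25 ± 0.033; edgeR adjusted p = 3.9e-09). Per kilobase, RAB27B made up 4.11, 4.91 and 5% of the RAB27A and RAB27B sum in over-expression libraries, against 38.9, 40.8 and 39.6% in controls. The sum itself was 46.7 ± 1.6 CPM per kilobase in over-expression libraries and 62.2 ± 1.16 in controls (SD, n = 3 each). The transcripts of both genes share no run longer than 17 bases.

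The RAB3 genes code for GTPases of regulated exocytosis. RAB3B rose to 12.5, 11.2 and 12.1 CPM in over-expression libraries, against 5.84, 7.21 and 6.38 CPM in controls (log2 fold change 0.88 ± 0.13; edgeR adjusted p = 3.8e-08). RAB3D, known from granules of secretory cells, stood at 10.4, 11 and 9.96 CPM in over-expression libraries, against 6.01, 4.21 and 6.63 CPM in controls (0.90 ± 0.14; edgeR adjusted p = 2.6e-07). Neither gene's groups overlapped. RAB3A, the synaptic vesicle form, stood at 4.52 ± 0.293 CPM in over-expression libraries and 4.56 ± 0.286 in controls (SD, n = 3 each), and its difference missed the threshold (-0.02 ± 0.17; edgeR adjusted p = 0.96). RAB26, a GTPase of secretory granules and synaptic vesicles, fell to 11.7, 9.75 and 7.98 CPM in over-expression libraries, against 13.7, 13.6 and 13.8 CPM in controls (-0.49 ± 0.11; edgeR adjusted p = 0.00034). For RAB26, 43.2% of the reads in the library with strand counts lay on the opposite strand, and for RAB3D 8.38%. Without RAB27B, the secretory genes summed to 279 ± 5.88 CPM in over-expression libraries and 234 ± 7.13 in controls, and with it to 294 ± 7.5 CPM in over-expression libraries and 409 ± 6.23 in controls (SD, n = 3 each).

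**Figure D3:**
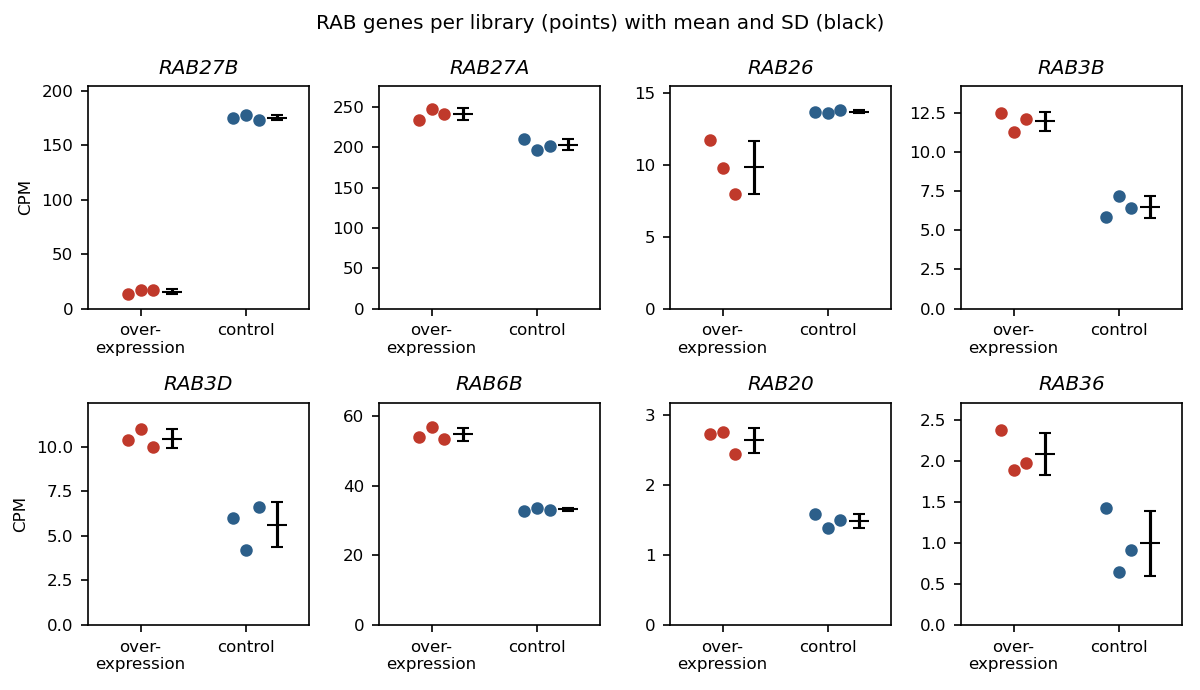
CPM per library of 8 RAB genes, with over-expression left (red) and control right (blue) in each panel, points for libraries and black bars for mean and SD (n = 3 each), on axes that start at 0. In each of the 8 panels the 2 groups do not overlap, and the gap is widest for RAB27B, at 15.5 ± 2.08 CPM in over-expression libraries and 175 ± 2.2 in controls. All 8 were picked from the called genes, so separate groups are no further evidence. Groups were separate for 52.2% of tested RAB genes and 47.5% of all tested genes.

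Of the 10 other tested genes within 1000000 bases of RAB27B, 1 fell, a noncoding gene inside it, and 3 rose. Over all tested genes 18.9% fell and 20.3% rose, 39.3% together, so the share called here is near the background. The nearest protein-coding neighbour, CCDC68, lies 5993 bases beyond its end and stood at 6.96 ± 1.43 CPM in over-expression libraries and 8.01 ± 1.12 in controls (SD, n = 3 each; log2 fold change -0.19 ± 0.14, edgeR adjusted p = 0.32). On the other side MBD2, POLI and C18orf54 had log2 fold changes of 0.06, 0.05 and 0.02 and did not pass the test. TCF4, a transcription factor of the E protein family, rose slightly (0.20 ± 0.048; edgeR adjusted p = 0.00071). The long noncoding gene ENSG00000267311, on the same strand within the RAB27B interval, stood at 0.133 ± 0.089 CPM in over-expression libraries and 1.57 ± 0.366 in controls (-3.45 ± 0.51; edgeR adjusted p = 9e-08). Its reads cannot be told apart from unannotated RAB27B transcript. These neighbours were looked up after the RAB27B values were known.

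**Figure D4:**
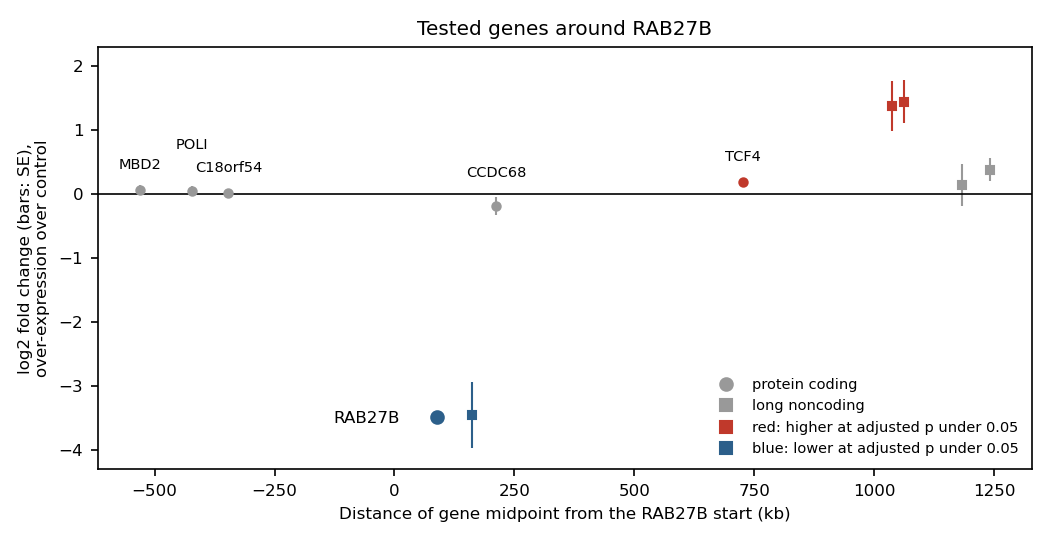
Log2 fold changes, over-expression over control, with SE bars, of the tested genes around RAB27B against the distance of each gene's midpoint from the RAB27B start in kilobases, circles for protein-coding and squares for noncoding genes. RAB27B at -3.49 and a noncoding gene inside it at -3.45 lie low, while CCDC68 beside it lies at -0.19.

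The RAB genes of the route to the cell surface and the cilium went both ways. Of 6 tested, 2 were higher and 1 lower (33.3% and 16.7%, against 20.3% and 18.9% of all tested genes). RAB10, the most abundant, stood at 242, 254 and 244 CPM in over-expression libraries, against 252, 260 and 265 CPM in controls, ranges that overlap (log2 fold change -0.07 ± 0.031; edgeR adjusted p = 0.074). It passed without over-expression replicate 2 (adjusted p = 0.042) and without the control column numbered 1 (0.044). RAB8B, which serves transport to the plasma membrane, fell to 35.9 ± 1.5 CPM in over-expression libraries, against 44.9 ± 4.56 in controls (SD, n = 3 each; -0.32 ± 0.065, edgeR adjusted p = 4e-05). Its relative RAB8A had a log2 fold change of -0.17 ± 0.11 and did not pass. RAB8A shares 41.7% of its exon bases with other genes. It had 580 sense reads in the library with strand counts, but 149 counts with strand ignored. RAB13, of tight junctions and the cell surface, rose by 0.17 ± 0.052, a call lost without the control column numbered 3 (edgeR adjusted p = 0.059). RAB28, which has a role in cilia, rose by 0.16 ± 0.066. Its call was lost without over-expression replicates 1 or 3 (edgeR adjusted p = 0.13 and 0.082) or without control columns 2 or 3 (0.17 and 0.084), and DESeq2 did not call it (0.16).

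Recycling RAB genes return receptors such as that of transferrin to the surface. Of 8 tested, 3 fell (37.5%, against 18.9% of all tested genes and 23.4% of protein-coding ones) and 0 rose in edgeR, with 4 lower and 0 higher at an unadjusted p under 0.05, and DESeq2 and limma-voom likewise called 3 lower and 0 higher. All 8 had log2 fold changes below 0, with a median of -0.16, where 9221 of all 18380 tested genes lay below 0. RAB4B, at -0.03 ± 0.33, turned sign when some single libraries were left out. RAB11A, the main GTPase of recycling endosomes, stood at 156, 163 and 175 CPM in over-expression libraries, against 190, 193 and 192 CPM in controls, and the groups did not overlap (-0.22 ± 0.036; edgeR adjusted p = 7.4e-07). RAB4A, of fast recycling from early endosomes, fell to 27.6 ± 1.91 CPM in over-expression libraries, against 34.7 ± 3.49 in controls (SD, n = 3 each; -0.34 ± 0.073, edgeR adjusted p = 0.00014). RAB35, which acts at the plasma membrane and in the last step of cell division, fell to 49.8 ± 5.26 CPM, against 59.3 ± 3.38 in controls (SD, n = 3 each; -0.25 ± 0.059, edgeR adjusted p = 0.00028). RAB14, RAB11B, RAB12, RAB15 and RAB4B did not pass. RAB11B, so close to RAB11A in sequence that their transcripts share a run of 36 bases, had a log2 fold change of -0.04 ± 0.056. Of the RAB15 reads in the library with strand counts, 97.5% lay on the opposite strand, so its values cannot be assigned to RAB15 alone. The recycling genes summed to 425 ± 7.87 CPM in over-expression libraries and 479 ± 11.3 in controls (SD, n = 3 each).

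Early endosome RAB genes, which control the fusion and sorting of newly taken up vesicles, were divided, with 2 of 7 higher and 2 lower. Each share is 28.6%, against 20.3% higher and 18.9% lower over all tested genes. RAB31, the highest in CPM though level with RAB5A per kilobase, stood at 174, 167 and 179 CPM in over-expression libraries, against 168, 163 and 173 CPM in controls, with overlapping ranges (log2 fold change 0.04 ± 0.035; edgeR adjusted p = 0.35). Of the RAB5 genes, the master switches of early endosomes, RAB5B rose to 69, 65.3 and 67 CPM in over-expression libraries, against 52, 49.7 and 54.5 CPM in controls (0.37 ± 0.052; edgeR adjusted p = 2.3e-08). RAB5A, the most abundant of the 3, stood at 112 ± 3.38 CPM in over-expression libraries and 114 ± 4.56 in controls (SD, n = 3 each), and its difference missed the threshold. RAB5C had a log2 fold change of -0.32 ± 0.13 with overlapping groups and an adjusted p of 0.045 in edgeR. It was not called by DESeq2 (adjusted p = 0.16) or limma-voom (0.063), nor without over-expression replicates 1 or 3 (0.17 and 0.11) or control columns 2 or 3 (0.13 and 0.26). RAB21, which serves the uptake of integrins, was slightly lower (-0.15 ± 0.047; edgeR adjusted p = 0.01), a call lost without over-expression replicate 3 (0.097) or the control column numbered 2 (0.072), and in DESeq2 (0.057). RAB20, of endosomes and phagosomes, was low but higher at 2.72, 2.75 and 2.43 CPM in over-expression libraries, against 1.58, 1.38 and 1.49 CPM in controls (0.82 ± 0.26; edgeR adjusted p = 0.009). DESeq2 placed it just outside the threshold (adjusted p = 0.055). RAB22A had a log2 fold change of 0.14 ± 0.066 and passed only without the control column numbered 3 (edgeR adjusted p = 0.015).

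None of the 5 tested RAB genes of late endosomes and lysosomes passed, where 39.3% of all tested genes did. At an unadjusted p under 0.05, edgeR had 1 higher (RAB24) and 0 lower, and DESeq2 and limma-voom had 0. RAB7A, the GTPase of late endosome and lysosome fusion, stood at 117, 117 and 112 CPM in over-expression libraries, against 113, 112 and 110 CPM in controls (log2 fold change 0.04 ± 0.039; edgeR adjusted p = 0.41). RAB9A, of transport from late endosomes to the Golgi, had a log2 fold change of 0.05 ± 0.085. RAB32, needed for lysosome-related organelles such as melanosomes and platelet dense granules, had one of 0.06 ± 0.088. RAB29, a partner of the kinase LRRK2, stood at 30.5 ± 0.115 CPM in over-expression libraries and 33 ± 1.95 in controls (SD, n = 3 each; -0.11 ± 0.069, edgeR adjusted p = 0.21). RAB24, linked to autophagy, had a log2 fold change of 0.52 ± 0.26 (edgeR adjusted p = 0.11), and 44.8% of its exon bases are shared with MXD3. None of the 3 tested RAB40 genes, whose proteins carry a SOCS box of ubiquitin ligases, passed in edgeR, DESeq2 or limma-voom, with 0 at an unadjusted p under 0.05 in each.

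Of the RAB genes of the endoplasmic reticulum and Golgi, 4 of 11 tested rose and 1 fell. These are 36.4% and 9.09%, against 20.3% and 18.9% of all tested genes. RAB6B, a relative of the Golgi GTPase RAB6A that is best known from neurons, rose to 54, 56.9 and 53.5 CPM in over-expression libraries, against 32.8, 33.7 and 33.2 CPM in controls (log2 fold change 0.72 ± 0.059; edgeR adjusted p = 4e-16). RAB6A, the highest of this group in mean CPM over all libraries though below RAB1A and RAB1B per kilobase, rose less, to 121, 132 and 131 CPM in over-expression libraries, against 113, 111 and 110 CPM in controls (0.20 ± 0.039; edgeR adjusted p = 1.9e-05). Neither gene's groups overlapped. RAB33B, of Golgi transport and autophagy, was called higher (0.40 ± 0.14; edgeR adjusted p = 0.018) although its groups overlapped. That call was lost in DESeq2 (adjusted p = 0.095) and without over-expression replicates 1 or 3 (0.12 and 0.052) or control columns 1 or 2 (0.064 and 0.085). RAB1B, of the step from endoplasmic reticulum to Golgi, was called lower (-0.17 ± 0.059; edgeR adjusted p = 0.014). DESeq2 did not call it (0.07), and the call was lost without over-expression replicate 2 (0.083) or control columns 1 or 2 (0.062 and 0.075). RAB1B shares 42.6% of its exon bases with other genes. It had 1406 sense reads in the library with strand counts, but 519 counts with strand ignored. RAB1A, the close relative of RAB1B, did not pass (-0.03 ± 0.041; edgeR adjusted p = 0.6), nor did RAB2A, RAB2B, RAB18, RAB30 and RAB43.

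RAB36, a Golgi and lysosome positioning GTPase whose gene lies beside BCR on chromosome 22, was the other RAB gene past 2-fold. It stood at 2.37, 1.89 and 1.98 CPM in over-expression libraries, against 1.42, 0.648 and 0.912 CPM in controls (log2 fold change 1.06 ± 0.32; edgeR adjusted p = 0.0054). The call was lost without the control column numbered 2 (adjusted p = 0.056). In the library with strand counts, 84% of its reads came from the opposite strand, so the value cannot be assigned to RAB36 transcripts alone. The same was so of RAB15 above and of RAB40A (82.4%), the 3 tested RAB genes with most reads on the opposite strand, where the share over all genes was 15.1%.

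The wider RAB machinery was read from 9 lists of regulators and effectors, in which 46 of 173 tested genes rose and 27 fell. That is 42.2% called, against 39.3% of all tested genes and 48.1% of tested protein-coding genes. The median log2 fold change of the lists was 0.05. Of the factors that lipidate RAB proteins or carry them, 2 of 11 rose and 3 fell. The shares are 18.2% and 27.3%, against 20.3% and 18.9% of all tested genes. RABGGTB, the catalytic subunit of the geranylgeranyl transferase that lipidates RAB proteins, fell to 129, 136 and 129 CPM in over-expression libraries, against 198 CPM in each control (log2 fold change -0.59 ± 0.035; edgeR adjusted p = 3.6e-22). Its partner subunit RABGGTA rose by 0.31 ± 0.086. ZMPSTE24, a protease that acts on other lipidated proteins, fell by 0.26 ± 0.051.

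Of the 4 genes tied to RAB phosphorylation, LRRK2 rose and TBK1 fell (25% each, against 20.3% and 18.9% of all tested genes). LRRK2, the kinase of RAB8A, RAB10, RAB29 and others, stood at 29.4, 29.5 and 29.3 CPM in over-expression libraries, against 6.76, 5.75 and 6.63 CPM in controls (log2 fold change 2.20 ± 0.1; edgeR adjusted p = 1.3e-27). All over-expression libraries lay far above all controls. In the library with strand counts 4.27% of its reads were antisense. TBK1, which phosphorylates RAB7A among other targets, fell by 0.20 ± 0.05, and neither PPM1H, a phosphatase of LRRK2 sites, nor the kinase LRRK1 passed.

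Among effectors of RAB27 and RAB3 proteins, 2 of 9 tested rose and 2 fell (22.2% each, against 20.3% and 18.9% of all tested genes). The higher calls numbered 1 in DESeq2, with no low-count filter, and without over-expression replicate 2 or the control column numbered 2. UNC13D (Munc13-4), which RAB27 proteins bind to prime granules for release, fell to 190, 176 and 183 CPM in over-expression libraries, against 232, 239 and 238 CPM in controls (-0.37 ± 0.033; edgeR adjusted p = 1.4e-14). EXPH5 (Slac2-b), another RAB27 effector, fell by 0.30 ± 0.049, and RIMS3, of the active zone protein family, rose by 0.41 ± 0.097. MYRIP was called higher (0.52 ± 0.2), but 95.7% of its reads in the library with strand counts were antisense.

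Effectors of recycling RAB proteins and the exocyst rose in 8 of 18 cases and fell in 0, with 1 lower at an unadjusted p under 0.05 in edgeR, and DESeq2 and limma-voom also called 0 lower. Over all tested genes 20.3% rose and 18.9% fell. With GC and length offsets 3 were called lower, and without over-expression replicate 1 or the control column numbered 1, 1 was. The 8 include MYO5B, of whose reads 76.8% were antisense in the library with strand counts. RAB11FIP1, which links RAB11 to recycling endosomes, rose to 327, 325 and 327 CPM in over-expression libraries, against 224, 231 and 238 CPM in controls (0.50 ± 0.031; edgeR adjusted p = 2e-21). EXOC6, an exocyst subunit, rose by 0.38 ± 0.05. Early endosome effectors fell in 3 of 14 cases and rose in 1, with VPS45, of vesicle fusion, at 0.43 ± 0.062, PIK3R4, of the endosomal lipid kinase complex, at -0.32 ± 0.054 and the tether subunit TGFBRAP1 at -0.31 ± 0.06. Late endosome effectors rose in 2 of 18 cases (1 in DESeq2, with GC and length offsets, or without any library other than the control column numbered 2) and fell in 3, with the HOPS tether subunits VPS16 at 0.47 ± 0.077 and VPS11 at -0.24 ± 0.054. Golgi effectors rose in 6 of 15 cases and fell in 2, with the tethers GCC2 at 0.32 ± 0.038 and GOLGA4 at 0.16 ± 0.031, and the stacking proteins GORASP1 at -0.22 ± 0.045 and GORASP2 at -0.16 ± 0.037.

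GEFs and their complexes rose in 14 of 48 cases and fell in 7. These are 29.2% and 14.6%, against 20.3% and 18.9% of all tested genes and 24.8% and 23.4% of protein-coding ones. The higher calls numbered 7 in DESeq2, 8 without over-expression replicate 2 and 9 without the control column numbered 2. DESeq2 called 28.6% of all tested genes in either direction. DENND5B, an exchange factor of the DENN family, rose by 0.60 ± 0.073, and RAB3IP (Rabin8), the exchange factor of RAB8 proteins, rose by 0.40 ± 0.059. TRAPPC8 and TRAPPC10, subunits of TRAPP complexes that activate RAB1 and RAB11 proteins, fell by 0.38 ± 0.036 and 0.25 ± 0.041. GAPs rose in 10 of 36 cases and fell in 6. TBC1D22B and TBC1D20, which act on Golgi RAB proteins, rose by 0.55 ± 0.049 and 0.45 ± 0.047, while RABGAP1L and TBC1D9B fell by 0.27 ± 0.037 and 0.23 ± 0.039.

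**Figure D5:**
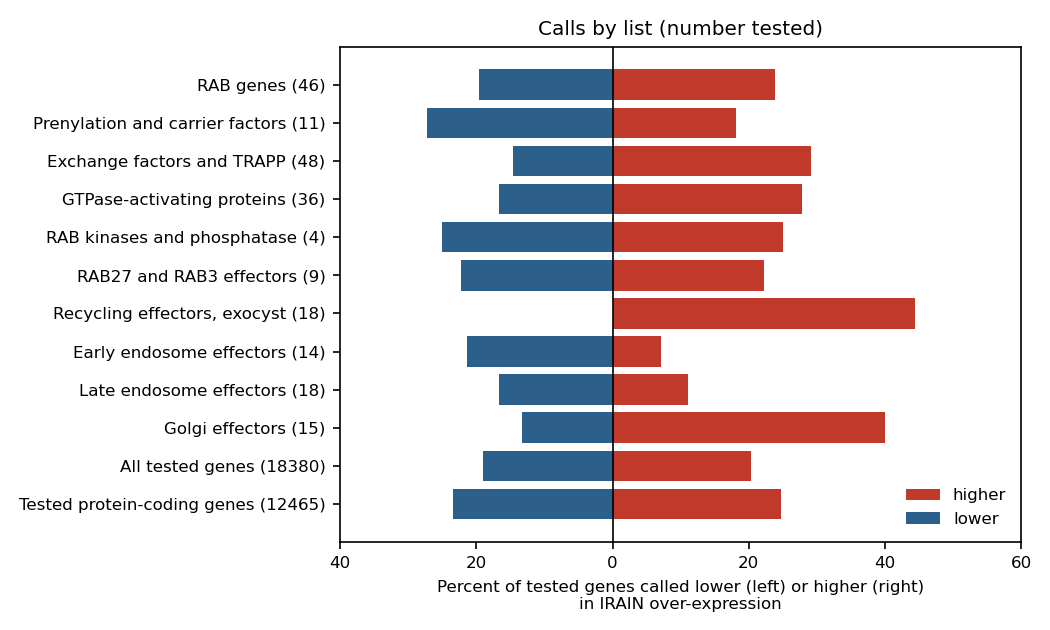
Percent of tested genes called lower (blue, left) or higher (red, right) in over-expression libraries at an adjusted p of 0.05, for the RAB genes, the 9 lists of regulators and effectors, all tested genes and the tested protein-coding genes, with the number tested in brackets. The RAB genes, at 23.9% higher and 19.6% lower, lie near all tested genes at 20.3% and 18.9%, and the recycling effectors have no lower call in this test, against 3 with GC and length offsets.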

How the data were processed

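RNA of K562 cells was sequenced from libraries made with a TruSeq RNA kit, per the labels' protocols. The submitters' processing notes name the aligner STAR and the build hg38. For its version, the annotation and the counter these sources give no entry. Raw counts per gene for 6 libraries were deposited by the authors, with no normalization. The control columns, named vector, were taken as a group and not matched to single samples. A second deposited count table, without header or sample name, holds 1 library with strand ignored and with each strand apart, as STAR writes gene counts. Its strand-ignored counts equal those of the over-expression column numbered 2 at all 58440 identifiers. In that layout strand is ignored and reads over exons of 2 genes go to neither. Of the tested RAB genes, 26 share exon bases with another gene, and 5 share over 40% (RAB1B, RAB8A, RAB23, RAB24 and RAB43).

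Identifiers were matched without version to GENCODE 29 (GRCh38; 58320 matched) and to a table of gene names (57799 matched). edgeR 4.0.16 in R 4.3.3 tested over-expression against control by the two-sided quasi-likelihood test, with TMM factors, filterByExpr, the group as sole term and Benjamini-Hochberg adjustment at 0.05 over all 18380 genes tested. The SE is the log2 fold change divided by the square root of F. Pairs of libraries within a group differed by a chi-square per degree of freedom of 1.36 to 2.31, above the 1 of sampling noise, and libraries of different groups by 12.9 to 14.5. The edgeR step was tested on simulated data. Alternatives used DESeq2 1.42.0, limma-voom (limma 3.58.1), other scaling, no filter, a 1.5-fold null, GC and length offsets, a replicate block and each library left out. Promoter windows are from RefSeq. All RAB genes could be named; library values are given for those called at 1.5-fold or more and for the most abundant of each compartment, and from each list the 2 higher and 2 lower calls with the smallest p, of which 1 gene is not reported here. Members and lists were chosen with earlier results of these data known.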

Additional observations from a re-analysis of the deposited data

How the results depend on the processing

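The counts of called RAB genes stayed within 1.5 times the reported 11 higher and 9 lower under RLE scaling, no low-count filter, GC and length offsets, DESeq2 (8 and 6, where 28.6% of all genes were called) and limma-voom. Leaving out each library in turn gave 8 to 11 higher and 6 to 9 lower, lowest without the control column numbered 2. In edgeR's test against a 1.5-fold change, 0 RAB genes were higher and 1 lower (RAB27B), 2 regulators and effectors were higher and 0 lower, and 447 genes were higher and 242 lower over the whole table; this test asks for a larger change by construction. Of the 20 called RAB genes, 13 held their call whichever library was left out, and 12 of them also under every other alternative but the 1.5-fold test.

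The replicate block by column number gave 11 RAB genes higher and 9 lower and changed no call among the 46. Deviations of same-numbered libraries correlated at -0.0444, 0.00274 and -0.00917, so no shared deviation by number was seen. These values cannot show whether same-numbered libraries were grown or prepared together.

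The sign turned only in genes that did not pass; the lowest and highest log2 fold changes with 1 library left out were -0.058 (without over-expression replicate 3) and 0.0080 (1) for RAB1A, -0.056 (without control column 2) and 3.11e-05 (3) for RAB5A, -0.050 and 0.042 (without over-expression replicates 2 and 3) for RAB3A, -0.32 (without over-expression replicate 3) and 0.39 (without control column 2) for RAB4B, -0.011 and 0.11 (without over-expression replicates 3 and 1) for RAB9A, and -0.068 and 0.70 (without control columns 1 and 3) for RAB40A. RAB3A was also at 0.036 without control column 3, RAB4B at 0.26 without over-expression replicate 2, and RAB40C at -0.00095 with GC and length offsets. The cause was not tested. Low counts limit RAB4B, RAB36, RAB40A and RAB43.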

Other observations

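Close relatives within the RAB family did not always go the same way. RAB27B fell while RAB27A rose, RAB5B rose while RAB5C was called lower by edgeR but not by DESeq2 or limma-voom, and RAB3B and RAB3D rose while RAB3A had a log2 fold change of -0.02 ± 0.17. RAB6A and RAB6B both rose, by 0.20 ± 0.039 and 0.72 ± 0.059. The longest run of identical bases between transcripts of these relatives was 17 for RAB27A and RAB27B, 26 for RAB5B and RAB5C, 35 for RAB3A and RAB3D and 20 for RAB6A and RAB6B. RAB6A shares up to 164 bases with RAB6C and 160 with RAB6D, each of which had at most 1 count in any library. How reads that fit several of these genes were counted is not given in the labels. Differences between relatives were not tested.

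All RAB genes together took 0.229 to 0.234% of the counts in over-expression libraries and 0.248 to 0.253% in controls. Their sum was 2352 ± 19.3 CPM in over-expression libraries and 2480 ± 26.7 in controls, and without RAB27B it was 2337 ± 17.4 CPM in over-expression libraries and 2305 ± 28.6 in controls (SD, n = 3 each). RAB27B made up 0.658% ± 0.0837 of the sum in over-expression libraries and 7.06% ± 0.157 in controls (SD, n = 3 each).

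RAB27A, RAB8B and RAB11A lie on chromosome 15, which also holds IRAIN and IGF1R. They begin at bases 55202966, 63189469 and 65726054, far from IRAIN at 98646951. All were called, where 39.3% of all tested genes were, and a link with position was not tested. RAB27A was higher by 0.25 ± 0.033, and RAB8B and RAB11A had log2 fold changes of -0.32 ± 0.065 and -0.22 ± 0.036.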
